A study of Gallus gallus with 2 samples.

Results

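GNLY-positive thymocyte nuclei were set against CD40LG-, NTNG1- or NDST4-positive thymocyte nuclei in chicken thymus. Nuclei of flash-frozen thymus from female chickens of 5 weeks had been profiled by droplet sequencing of RNA 3′ ends in 2 libraries, called replicate 1 and replicate 2. Every nucleus of both sides comes from these 2 untreated samples, so the comparison is between cells within a thymus and not between treatments. A nucleus entered when it had at least 200 detected genes and no UMI (unique molecular identifier, a counted RNA molecule) of RAG1, RAG2, DNTT, CACNA1C, SOX13, FOXN1 or PAX5. GNLY-positive nuclei had at least 1 GNLY UMI and none of CD40LG, NTNG1 or NDST4. Nuclei of the other side had at least 1 UMI of CD40LG, NTNG1 or NDST4 and none of GNLY or SH3RF3. There were 69 and 72 GNLY-positive nuclei in replicates 1 and 2, 141 in all, against 240 and 256 CD40LG/NTNG1/NDST4-positive nuclei, 496 in all. Together these were 637 of the 12614 barcodes in both libraries. Since these 12 genes chose the nuclei, their levels are a description and none of them was tested.

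Late in thymic development, T cells stop rearranging their receptor genes, lose RAG1, RAG2 and DNTT, and split into lineages with different effector programmes. GNLY encodes a saposin-like antimicrobial and cytolytic peptide, called NK-lysin in chickens, that is stored in the granules of cytotoxic T cells and natural killer cells. CD40LG encodes the ligand by which helper T cells activate B cells, macrophages and dendritic cells through CD40. NTNG1 encodes netrin G1, a membrane-anchored adhesion protein known from synapses, and NDST4 encodes an enzyme that deacetylates and sulfates heparan sulfate chains.

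The 2 gates did not select the same kind of evidence. Of the 496 CD40LG/NTNG1/NDST4-positive nuclei, only 120 held a CD40LG UMI, 101 more held NTNG1 without CD40LG, and 275, or 55.4%, were included by NDST4 alone. The label of a CD40LG-positive population therefore covers the smaller share of this side, which is named here by all 3 of its genes. On the GNLY side 85 nuclei had a single GNLY UMI and 56 had 2 or more, with 113 and 181 GNLY UMIs in replicates 1 and 2. SH3RF3 was detected in 40 of the 141 GNLY-positive nuclei and was excluded from the other side by the rule.

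A low share of nuclei can hold a UMI of a gene through RNA free in the droplets, so the gate genes were also counted in nuclei with RAG1, RAG2 or DNTT. Among nuclei without UMIs of the 7 excluded genes, GNLY had a UMI in 3.34% of 2724 in replicate 1 and 3.71% of 2482 in replicate 2. Among nuclei with a recombination gene it had one in 0.277% (95% exact binomial interval 0.0902% to 0.646%) of 1802 and in 0.262% (0.0962% to 0.569%) of 2291. CD40LG, NTNG1 or NDST4 had a UMI in 10.5% and 12.7% of nuclei without the excluded genes, against 1.89% and 1.27% of nuclei with a recombination gene. Median depth was 675 and 846.5 UMIs in the nuclei without the excluded genes, and 641 and 777 UMIs in those with a recombination gene. UMIs of these genes were thus found several times more often in nuclei without the excluded genes than in those with a recombination gene. Of the 4 side genes NDST4 had the highest share in nuclei with a recombination gene, at 1.55% and 1.00%. The side genes belong to the rule, so these shares are a description. How many nuclei entered a side through free RNA was not tested.

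The GNLY-positive nuclei summed to 68994 and 101806 UMIs, with medians of 897 and 1225 UMIs per nucleus, against 238158 and 331498 UMIs and medians of 888.5 and 1096.5 on the other side. At this depth a count of 0 in a nucleus often means that the RNA was not sampled. Each side was a small share of the nuclei without excluded genes, 2.53% (1.98% to 3.19%) and 2.90% (2.28% to 3.64%) for GNLY, against 8.81% (7.77% to 9.94%) and 10.3% (9.14% to 11.6%). The libraries had 13 barcode sequences in common, none of them in a side of both libraries. A further 42 nuclei passed both gates and were left out of both sides.

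The GNLY-positive nuclei carried T cell RNA. All 14 measured T cell markers were detected in them, 63 of 69 and 71 of 72 nuclei held at least 1 of their UMIs, and the summed level was 14349 and 15559 CPM (UMIs per 1000000 UMIs of the summed nuclei), against 23027 and 26815 CPM on the CD40LG/NTNG1/NDST4 side. Other nuclei without the excluded genes had 19655 and 22679 CPM, and 2267 of 2415 and 2065 of 2154 of them held such a UMI. Nuclei with a recombination gene and no side gene or SH3RF3 had 22263 and 23296 CPM. The sum was thus lowest on the GNLY side, and the share of nuclei with a UMI does not set that side apart. Of the 14 markers 8 were lower in GNLY-positive nuclei by the edgeR test of the sides, beside 0.395% of all genes tested. None of the 14 was higher. These 8 (CD247, CD28, THEMIS, GRAP2, TRAT1, BCL11B, TCF7 and CD5) are counted again in gene lists below, so those counts are not separate from this one. Thymic epithelial and erythroid markers had no UMI in GNLY-positive nuclei, against 25 and 5 epithelial and 67 and 1 erythroid UMIs on the other side. Levels of 4 other lists were higher on the GNLY side in both libraries: B cell markers at 362 and 422 CPM against 168 and 72.4 CPM, macrophage markers at 246 and 78.6 CPM against 109 and 33.2 CPM, dendritic cell markers at 478 and 324 CPM against 260.3 and 163 CPM, and mesenchymal markers at 58.0 and 29.5 CPM against 29.4 and 9.05 CPM. Of the B cell UMIs in GNLY-positive nuclei, 25 and 43 in all, BLK gave 10 and 29, against 19 and 12 on the other side. BANK1 gave 8 and 3 against 1 and 1, and BTK gave 5 and 6 against 5 and 2. BLK is a kinase that gamma delta T cells also express. None of the 5 tested B cell markers passed edgeR's test, but BLK, BANK1 and BTK were higher at an unadjusted p below 0.05, DESeq2 called BLK, and the median log2 fold change was 1.94. POU2AF1 had 0 and 0 UMIs in GNLY-positive nuclei against 0 and 1, and EBF1 had 1 and 2 against 3 and 4. These UMIs are not scaled to the sums, which were 68994 and 101806 against 238158 and 331498. The smaller EBF1 counts therefore do not show a lower level. The macrophage UMIs came from 3 and 4 GNLY-positive nuclei, against 6 and 5 nuclei on the other side. Of the 8 tested macrophage markers 3 had a positive log2 fold change and 4 were at 0 UMIs on a side. The median log2 fold change of this list was -2.43 as fitted. With genes at 0 UMIs on a side set to a bound of 3 counts, or to 0 where that bound crossed 0, the median was 0. Whether most members shared the higher summed level therefore cannot be told. SPI1 had 10 and 3 UMIs in GNLY-positive nuclei against 3 and 1, and TIMD4 had 2 and 3 against 1 and 0, both higher at an unadjusted p below 0.05, while C1QA, C1QB, C1QC and MARCO were at 0 in GNLY-positive nuclei. Of the dendritic cell markers CD74 had 7 and 8 UMIs in the smaller GNLY-positive sums against 7 and 8, and CADM1 had 7 and 1 against 4 and 0, also higher at an unadjusted p below 0.05, and all 5 tested members were positive with a median of 1.62. XCR1 and BATF3 were at 0 on both sides. Recombining nuclei, with RAG1, RAG2 or DNTT, had 333 and 320 CPM of the dendritic cell list. Its UMIs were in 361 of 1749 and 523 of 2251 of them, in replicate 1 from 1 detected member only. A UMI of this list therefore does not by itself mark another cell type. Mesenchymal UMIs were those of ACTA2 except for 1 of DCN, in 3 and 2 nuclei. With every nucleus left out that held a UMI of the epithelial, macrophage, erythroid, endothelial, mesenchymal or thrombocyte lists, 23 of the 24 leading genes below were called again, and ARID5B was lost (adjusted p = 0.11). An alternative chosen after seeing the data left out every nucleus with a UMI of the B cell, macrophage or dendritic cell lists. It kept 45 and 37 GNLY-positive nuclei, against 176 and 204 of the other side. Of the 1749 and 2251 recombining nuclei it kept 1363 and 1597, so it does not leave out other cell types alone. In that fit 45 genes were called between the sides, 35 of them among the 75 reported below, and all 75 kept their sign. Of the 24 leading genes 20 were called again, and BCR, NAV3, PTP4A3 and CUX1 were lost (adjusted p between 0.15 and 0.27). A lost call in this smaller fit is not by itself a smaller difference. Among called genes lost there, the log2 fold change went from 3.80 to 4.10 for HIC2 and from 0.85 to 0.29 for MBP. Whether calls were lost through the smaller number of nuclei was not tested.

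UMI counts were summed per library and nucleus group, and the sides were compared with edgeR's quasi-likelihood test, with the library as a block and Benjamini-Hochberg adjustment over all 9357 genes tested. At an adjusted p below 0.05, 38 genes (0.406% of those tested) were higher and 37 (0.395%) were lower in GNLY-positive nuclei, 0.802% in all. Of these 75 genes 59 had a symbol, 31 higher and 28 lower. In each of the 75 genes the difference had the same sign in both libraries and the 2 values of one side did not overlap with the 2 of the other. The 75 were called from these same values, and the share of all genes tested without overlap was not counted. The count is therefore a description and not a separate replication. The median log2 fold change of all genes tested was -0.11. The block takes out a shift shared by a whole library. These p-values therefore set the difference between the sides against a spread pooled over all groups in the fit. The pooled groups include 2415 and 2154 other nuclei and 1749 and 2251 recombining nuclei, beside 69 and 72 GNLY-positive nuclei. Whether the pooled spread is too small for the GNLY side was not tested. It is the spread of differences between nucleus groups from 1 library to the other. Nothing in the labels says that the 2 libraries came from different birds, so that spread may be technical. Without replicate 1 there were 23 calls and without replicate 2 there were 4, with all 75 genes keeping their sign, and DESeq2 called 116 genes, 73 higher and 43 lower. In sums such as these, fewer nuclei with a gene and less RNA per nucleus cannot be told apart, and the numbers of nuclei with a UMI are therefore given beside the levels.

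**Figure D1:**
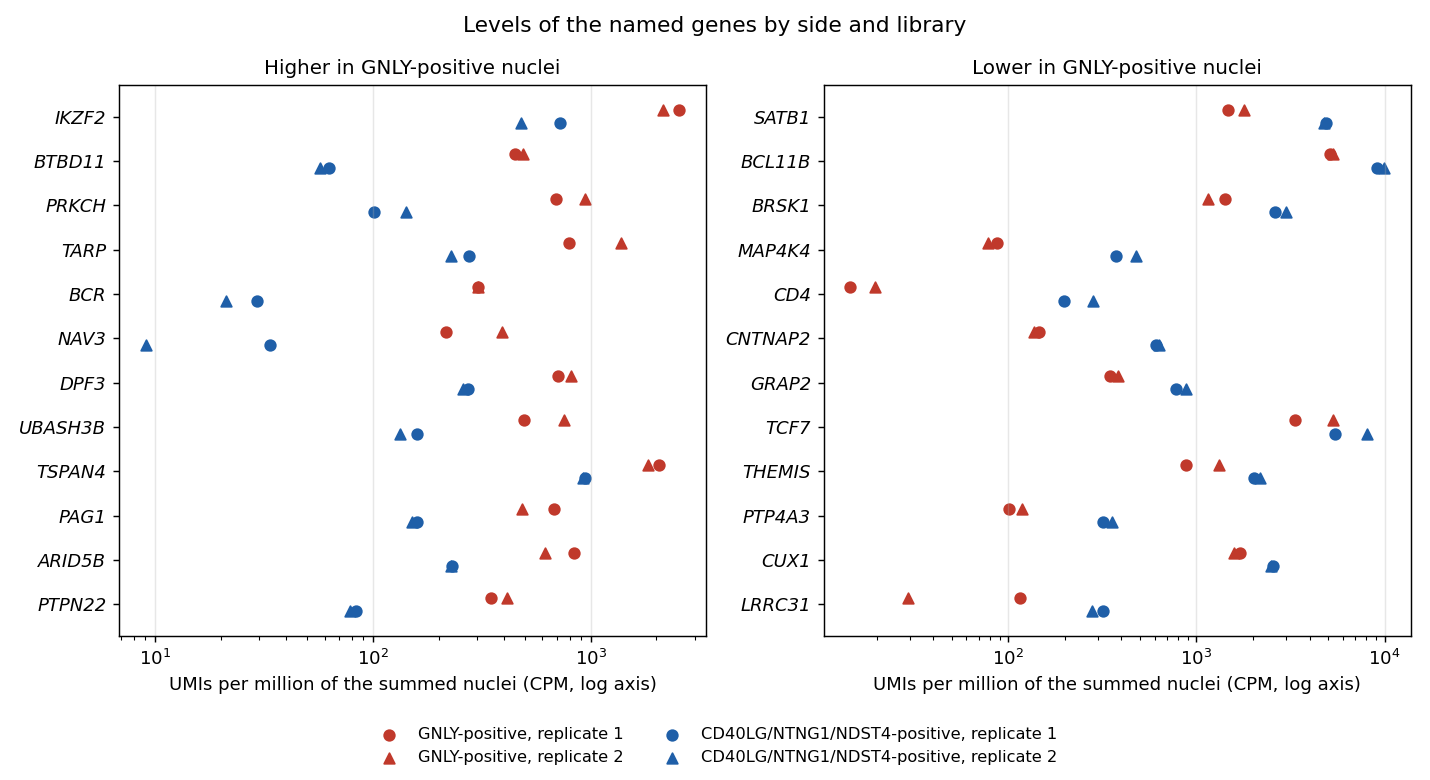
Level of 24 genes in each summed side and library, in CPM on log axes, with the 12 genes higher in GNLY-positive nuclei in the left panel and the 12 lower in the right panel. Circles are replicate 1 and triangles replicate 2; for every gene both GNLY-positive values (red) lie on one side of both CD40LG/NTNG1/NDST4-positive values (blue), although TCF7 in GNLY-positive nuclei of replicate 2 (5304 CPM) comes close to the other side's replicate 1 (5433 CPM).

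IKZF2 had the smallest p of the genes higher in GNLY-positive nuclei. IKZF2 (chr7:3703513-3814990 in GRCg7b, the coordinates of all genes here) encodes Helios, an Ikaros family transcription factor of T cells. It had 2551 and 2151 CPM in GNLY-positive nuclei of replicates 1 and 2, against 722 and 479.6 CPM in CD40LG/NTNG1/NDST4-positive nuclei. The log2 fold change was 1.87 ± 0.16 (SE, n = 2 libraries per side, edgeR adjusted p = 1.5e-05). IKZF2 UMIs were found in 59 of 141 GNLY-positive nuclei, with up to 42 in a single nucleus, against 85 of 496 with up to 34. The RNA was thus abundant in some nuclei of both sides and undetected in most. When each nucleus was thinned to 400 UMIs, which left 138 and 482 nuclei, 32.6% of GNLY-positive nuclei and 9.96% of CD40LG/NTNG1/NDST4-positive nuclei still held IKZF2.

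BTBD11, an ankyrin repeat and BTB domain gene at chr1:53410304-53591542, had 449 and 491 CPM in GNLY-positive nuclei against 63.0 and 57.3 CPM on the other side (log2 fold change 2.87 ± 0.30, adjusted p = 0.0002). DPF3, a subunit of BAF chromatin remodelling complexes at chr5:25991982-26183788, had 710.2 and 815 CPM against 273 and 259 CPM (1.42 ± 0.20 on the log2 scale, adjusted p = 0.002). ARID5B, a DNA-binding protein with an AT-rich interaction domain at chr6:8955309-9099094, had 841 and 619 CPM against 231 and 229 CPM (adjusted p = 0.0022). The GNLY side was the higher in both libraries for all 3 genes, by a factor that was widest for BTBD11.

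Beyond these 12 leading genes, several called regulators were picked for description after their values were seen. RUNX2, a Runt family transcription factor, had 464 and 629 CPM in GNLY-positive nuclei against 176 and 69.4 CPM (adjusted p = 0.0067). AHR1A, an aryl hydrocarbon receptor that acts as a ligand-activated transcription factor, had 435 and 432 CPM against 71.4 and 118 CPM (adjusted p = 0.0057). TLE4, a Groucho family co-repressor, had 652 and 579.5 CPM against 189 and 193 CPM (adjusted p = 0.0031). HIC2, a zinc finger repressor, was called from few molecules, with 6 and 19 UMIs against 4 and 1 (adjusted p = 0.0497). RUNX2 and AHR1A were also low in recombining nuclei, at 17.3 and 23.0 CPM and 7.93 and 9.21 CPM. Of these 4 genes RUNX2 was still called without nuclei holding B cell, macrophage or dendritic cell markers (adjusted p = 0.00062), and AHR1A, TLE4 and HIC2 were not (adjusted p = 0.25, 0.22 and 0.24). Their log2 fold changes there were 1.43, 1.10 and 4.10, against 2.03, 1.56 and 3.80 with all nuclei.

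Of 29 tested genes of the T cell receptor complex and its signalling, 4 were higher in GNLY-positive nuclei (UBASH3B, PTPN22, CBLB and TARP), 5 were lower (THEMIS, GRAP2, CD247, TRAT1 and CD5) and 20 did not pass, beside 0.406% higher and 0.395% lower of all genes tested. Other signalling genes, outside this list, were called as well. PRKCH (chr5:53544204-53649520), which encodes protein kinase C eta, had 696 and 943 CPM in GNLY-positive nuclei against 101 and 142 CPM in CD40LG/NTNG1/NDST4-positive nuclei. Its log2 fold change was 2.64 ± 0.29 (adjusted p = 0.00029), and 62 of 141 against 48 of 496 nuclei held a UMI. PRKCH thus marked a larger share of GNLY-positive nuclei, in both libraries, and after thinning the shares were 23.9% and 3.94%. PTPN22 (chr26:3787642-3800940), a tyrosine phosphatase that dampens T cell receptor signalling, had 348 and 413 CPM against 84.0 and 78.4 CPM (log2 fold change 2.14 ± 0.32, adjusted p = 0.0024). UBASH3B (chr24:3191173-3247753), a phosphatase of the same kind of brake, had 493 and 756 CPM against 159.6 and 133 CPM (log2 fold change 2.04 ± 0.29, adjusted p = 0.0021). PAG1 (chr2:120789835-120900713), a membrane adaptor that recruits the inhibitory kinase CSK, had 681 and 481 CPM against 159.6 and 151 CPM (log2 fold change 1.75 ± 0.26, adjusted p = 0.0022). For these 3 genes the values on the CD40LG/NTNG1/NDST4 side were close to each other, and both GNLY-positive values stood well above them. None of the 3 was called when each nucleus was thinned to 400 UMIs (adjusted p = 0.052 for UBASH3B, 0.2 for PTPN22 and 0.28 for PAG1).

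CBLB, an E3 ubiquitin ligase that limits T cell activation, had 783 and 2063 CPM in GNLY-positive nuclei against 558 and 540.0 CPM (log2 fold change 1.31 ± 0.28, adjusted p = 0.041). The 2 GNLY-positive values lay far apart, and the smaller exceeded the other side only modestly. PLCG2, a phospholipase C best known downstream of the B cell receptor and of innate receptors, had 289.9 and 393 CPM against 71.4 and 112 CPM (adjusted p = 0.019). BCR (chr15:8578290-8684843), a GTPase regulator known as the fusion partner of ABL1, had 304 and 305 CPM against 29.4 and 21.1 CPM (log2 fold change 3.50 ± 0.47, adjusted p = 0.0016). CBLB and PLCG2 fell out of the calls without nuclei holding B cell, macrophage or dendritic cell markers, at log2 fold changes of 0.52 and 0.96 (adjusted p = 0.59 for both), and BCR had 3.04 there (adjusted p = 0.15). BCR UMIs were in 28 of 141 nuclei against 11 of 496.

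Among receptor genes, TARP, IL2RB and CD7 were called higher. TARP (chr2:49010712-49099826) carries the symbol of a human gene transcribed from the T cell receptor gamma locus. It had 797 and 1375 CPM in GNLY-positive nuclei against 277 and 229 CPM (log2 fold change 2.04 ± 0.24, adjusted p = 0.00042), in 62 of 141 against 63 of 496 nuclei. The gamma delta T cell list, in which TARP was the only one of 4 tested members to pass, summed to 1102 and 1739 CPM against 605 and 522 CPM. Of all genes tested 0.406% were higher. TARP itself gave 55 of the list's 76 UMIs and 140 of its 177 in GNLY-positive nuclei, against 66 of 144 and 76 of 173. The list's sum is thus not separate from TARP. At an unadjusted p below 0.05 in edgeR, BLK of this list was also higher and MAF was lower. IL2RB, the beta chain that the receptors for IL2 and IL15 share, had 14 and 21 UMIs in the 2 libraries of GNLY-positive nuclei against 3 and 3 UMIs, although there were fewer GNLY-positive nuclei. In CPM this was 203 and 206 against 12.6 and 9.05 (log2 fold change 4.14 ± 0.71, adjusted p = 0.0073). CD7, a surface glycoprotein of T cells and natural killer cells, had 15 and 18 UMIs against 5 and 2 (log2 fold change 3.83 ± 0.75, adjusted p = 0.022). Neither IL2RB nor CD7 was called without nuclei holding B cell, macrophage or dendritic cell markers, at log2 fold changes of 4.02 and 4.43 (adjusted p = 0.11 and 0.098). IL2RB was detected in 24 and CD7 in 25 of the 141 GNLY-positive nuclei, against 5 and 6 of 496.

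The remaining leading higher genes were NAV3, a microtubule-associated protein at chr1:38488926-39016857, and TSPAN4, a tetraspanin at chr5:14864871-15260052. NAV3 had 217 and 393 CPM against 33.6 and 9.05 CPM (log2 fold change 3.91 ± 0.54, adjusted p = 0.0016). TSPAN4 was readily detected on both sides, with 2058 and 1837 CPM against 945 and 917 CPM (log2 fold change 0.94 ± 0.14, adjusted p = 0.0022). TSPAN4 was not called with SH3RF3 at 0 on both sides (adjusted p = 0.1). The other higher genes with a symbol that were called are FAM129A, ATXN1, SNTB1, EML4, ARL6, PEAK1, CNOT6L, B3GNT5, MBP, SOAT1 and GLCCI1, with log2 fold changes between 0.85 for MBP and 2.47 for B3GNT5. Without nuclei holding B cell, macrophage or dendritic cell markers, only FAM129A and ATXN1 of these were still called (adjusted p = 0.0083 and 0.0023). The others were lost, with adjusted p between 0.055 for ARL6 and 0.8 for MBP, whose log2 fold change fell to 0.29. The log2 fold changes of ARL6 and PEAK1 were 1.33 and 2.71 there, against 1.18 and 2.40 with all nuclei.

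Of 22 tested transcription factors of thymocytes 4 were lower in GNLY-positive nuclei (SATB1, BCL11B, TCF7 and HIVEP3) and 18 did not pass, beside 0.395% lower of all genes tested. SATB1 (chr2:35078144-35169743), a chromatin organiser of thymocytes, had 1464 and 1788 CPM in GNLY-positive nuclei against 4909 and 4763 CPM in CD40LG/NTNG1/NDST4-positive nuclei. The log2 fold change was -1.68 ± 0.13 (adjusted p = 1.3e-05), the smallest p of all lower genes. SATB1 UMIs were in 31 of 141 GNLY-positive nuclei and in 272 of 496 nuclei of the other side, and the largest number in a nucleus was 38 and 43. The side was thus mixed, with most GNLY-positive nuclei at 0 UMIs and a few at levels seen on the other side. After thinning to 400 UMIs, 20.3% of GNLY-positive nuclei and 52.1% of the others held SATB1.

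BCL11B (chr5:47288221-47383625), required for commitment to the T lineage, had 5116 and 5285 CPM against 9065 and 9901 CPM (log2 fold change -0.98 ± 0.11, adjusted p = 0.00038), in 79 of 141 against 427 of 496 nuclei. TCF7 (chr13:15521910-15580445), which encodes TCF-1, had 3334 and 5304 CPM against 5433 and 8057 CPM (log2 fold change -0.76 ± 0.12, adjusted p = 0.003). For TCF7 the libraries differed about as much as the sides, and the call was lost without the library block (adjusted p = 0.45). HIVEP3, a large zinc finger transcription factor, had 783 and 884 CPM against 1528 and 1554 CPM (adjusted p = 0.013). CUX1 (chr19:4364658-4591672), a homeodomain protein, had 1696 and 1581 CPM against 2553 and 2483 CPM (log2 fold change -0.74 ± 0.12, adjusted p = 0.0067). The CUX1 call was lost with the second side chosen by CD40LG alone (log2 fold change -0.25, adjusted p = 0.72), without cycling nuclei (adjusted p = 0.13) and without nuclei holding B cell, macrophage or dendritic cell markers (adjusted p = 0.27). BCL11B, TCF7 and CUX1 stayed well detected in GNLY-positive nuclei.

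Of 19 tested genes of helper T cell identity 2 were lower in GNLY-positive nuclei, CD4 and CD28, and 17 did not pass, beside 0.395% lower of all genes tested. CD4 (chr1:77157345-77168880), the co-receptor for class II molecules, had 1 and 2 UMIs in GNLY-positive nuclei against 47 and 94 UMIs, which is 14.5 and 19.6 CPM against 197 and 284 CPM (log2 fold change -3.91 ± 0.54, adjusted p = 0.0016). Only 2 of 141 GNLY-positive nuclei held a CD4 UMI, against 67 of 496. CD28, the co-stimulatory receptor for CD80 and CD86, had 507 and 275 CPM against 760 and 742 CPM (log2 fold change -1.13 ± 0.24, adjusted p = 0.034). CD5, which tunes T cell receptor signals, had 145 and 393 CPM against 449 and 763 CPM (log2 fold change -1.25 ± 0.25, adjusted p = 0.024). The CD5 values also differed between the libraries on each side. GNLY-positive replicate 2 (393 CPM) lay near the other side's replicate 1 (449 CPM). Neither CD28 nor CD5 was called without nuclei holding B cell, macrophage or dendritic cell markers, at log2 fold changes of -0.86 and -1.21 (adjusted p = 0.19 and 0.082). CD8A, the co-receptor for class I molecules, was scarce on both sides, with 7 and 4 UMIs against 5 and 21 (adjusted p = 0.89). CD8A stood at 101 and 39.3 CPM in GNLY-positive and 21.0 and 63.3 CPM in CD40LG/NTNG1/NDST4-positive nuclei, against 387 and 405 CPM in recombining nuclei.

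The lower genes of the T cell receptor list, of which CD5 is given above, stood beside receptor chains that did not pass. THEMIS (chr3:58630133-58713450), needed for thymocyte selection, had 884 and 1316 CPM against 2028 and 2166 CPM (log2 fold change -1.03 ± 0.16, adjusted p = 0.0038). GRAP2 (chr1:50338727-50378532), an adaptor that links LAT to SLP-76, had 348 and 383 CPM against 781 and 881 CPM (log2 fold change -1.30 ± 0.19, adjusted p = 0.0025). CD247, the zeta chain of the receptor complex, had 377 and 305 CPM against 810.4 and 624 CPM (adjusted p = 0.016). TRAT1, a transmembrane adaptor of the complex, had 87.0 and 157 CPM against 386 and 371 CPM (adjusted p = 0.016, and 0.3 without nuclei holding B cell, macrophage or dendritic cell markers). The receptor chains CD3E and CD3D did not pass the test, with 406 and 363 CPM of CD3E against 244 and 528 CPM and 232 and 334 CPM of CD3D against 223 and 190.0 CPM. The CD3E values of the sides overlapped, and those of CD3D were higher in GNLY-positive nuclei of both libraries without passing. The THEMIS call was lost without the library block (adjusted p = 0.094), and that of GRAP2 with the second side chosen by CD40LG alone (adjusted p = 0.071).

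MAP4K4 (chr1:133685918-133837906), a serine/threonine kinase, had 87.0 and 78.6 CPM in GNLY-positive nuclei against 374 and 479.6 CPM (log2 fold change -2.51 ± 0.33, adjusted p = 0.0014). BRSK1 (chr5:13934708-14233905), a kinase known from neurons, had 1420.4 and 1149 CPM against 2616 and 2977 CPM (log2 fold change -1.26 ± 0.15, adjusted p = 0.00042). CNTNAP2 (chr2:52953228-53863132), a neurexin family adhesion protein, had 145 and 138 CPM against 609 and 630.5 CPM (log2 fold change -2.25 ± 0.32, adjusted p = 0.002). PTP4A3 (chr2:145167247-145212320), a prenylated phosphatase, had 101 and 118 CPM against 319 and 356 CPM (log2 fold change -1.73 ± 0.28, adjusted p = 0.0057). In all 4 genes the 2 libraries gave similar values on each side, and the sides stood apart. PTP4A3 was not called with at least 2 gate UMIs, with the second side chosen by CD40LG alone, with thinning or without nuclei holding B cell, macrophage or dendritic cell markers (adjusted p between 0.053 and 0.43).

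LRRC31 (chr9:19595450-19632217) and LRRC34 (chr9:19632410-19655616), which encode leucine-rich repeat proteins, lie 193 bases apart on chromosome 9. LRRC31 had 8 and 3 UMIs in GNLY-positive nuclei against 76 and 93 (log2 fold change -2.31 ± 0.42, adjusted p = 0.013), and LRRC34 had 2 and 3 against 36 and 60 (log2 fold change -2.63 ± 0.50, adjusted p = 0.019). Whether reads were shared between these neighbours was not tested, and the pair is reported as uncertain. LRRC31 was not called without the library block (adjusted p = 0.062), and LRRC34 and HS6ST1 were not called without nuclei holding B cell, macrophage or dendritic cell markers (adjusted p = 0.08 and 0.2). HS6ST1, which sulfates heparan sulfate chains as NDST4 does at another position, had 478 and 265 CPM against 680.2 and 637 CPM (adjusted p = 0.044). The other lower genes with a symbol that were called include MAML2, DPEP2, ASPH, SLC26A4, MSI2, CTDSPL, PTPRA and NRIP1, with log2 fold changes between -3.43 for SLC26A4 and -0.83 for MSI2. Of these only ASPH was still called without nuclei holding B cell, macrophage or dendritic cell markers (adjusted p = 0.014). The others had adjusted p between 0.055 for DPEP2 and 0.69 for NRIP1 there. The log2 fold changes of DPEP2 and NRIP1 were -1.90 and -0.46 in that fit, against -1.74 and -0.94 with all nuclei.

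The gene list of cytotoxic granules gave no call between the sides. Of its 11 tested members none passed edgeR's test in either direction, with PRF1 and SRGN at an unadjusted p below 0.05 and none called by DESeq2. The median log2 fold change was 0.17, with all genes tested at -0.11. SRGN, the granule proteoglycan serglycin, had 4 and 53 UMIs in GNLY-positive nuclei against 16 and 88 (adjusted p = 0.54). Almost all of the GNLY-positive SRGN UMIs came from replicate 2, so the 2 libraries did not give the same picture. PRF1, which encodes perforin, had 1 and 7 UMIs in 4 GNLY-positive nuclei against 0 and 0 (adjusted p = 0.34). GZMA, which encodes granzyme A, had 0 and 2 UMIs against 0 and 0 and was too scarce to be tested. The chemokines CCL5 and XCL1 had 1 and 9 and 5 and 10 UMIs against 0 and 0 and 3 and 2 (adjusted p = 0.28 and 0.29). The depth therefore limits what can be said of effector genes on a side of 141 nuclei.

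**Figure D2:**
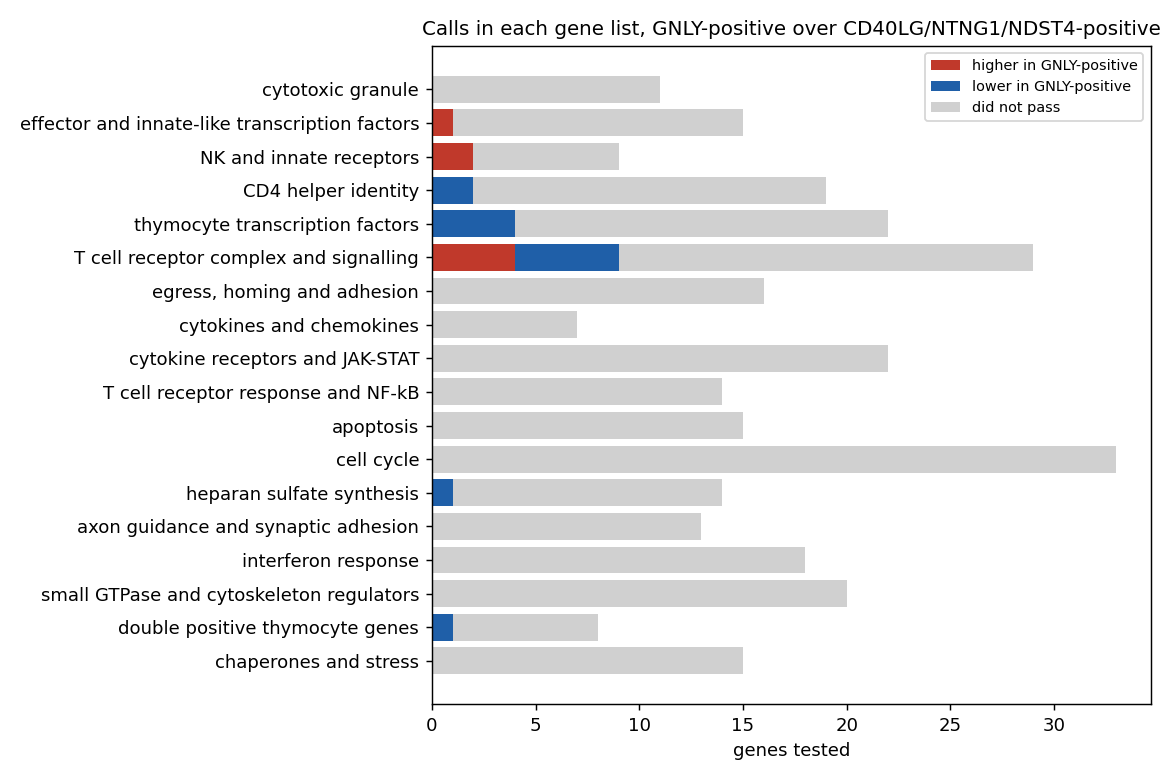
Number of genes tested in each of 18 gene lists, with those higher in GNLY-positive nuclei in red, those lower in blue and those that did not pass the edgeR test (adjusted p 0.05 or above) in grey. The T cell receptor list holds calls in both directions, 4 higher and 5 lower of 29, and 11 lists hold none.

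Of 15 transcription factors of effector and innate-like lymphocytes, IKZF2 was the one that passed, as higher, beside 0.406% higher of all genes tested. In edgeR 5 of the 15 were higher at an unadjusted p below 0.05 (EOMES, ID2, PRDM1, ZEB2 and IKZF2) and 0 were lower. Over all 9357 genes tested, 867 had such a p in either direction. EOMES, a T-box factor of cytotoxic cells, had 3 and 14 UMIs in GNLY-positive nuclei against 1 and 0 (adjusted p = 0.17), in 14 nuclei against 1. TBX21, which encodes T-bet, had 0 and 6 UMIs in the smaller GNLY-positive sums against 0 and 4 (adjusted p = 0.73). ID2, an inhibitor of E proteins, had 9 and 21 UMIs in these smaller sums against 4 and 26 (adjusted p = 0.19). ZEB2, a zinc finger factor, had 14 and 50 against 65 and 12 UMIs, of which 48 and 34 came from single nuclei. The median of this list was 0.47 on the log2 scale.

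Of 9 natural killer and innate receptor genes, IL2RB and CD7 passed as higher, beside 0.406% of all genes tested, and the list's median log2 fold change was 1.09. In edgeR 5 of the 9 were higher at an unadjusted p below 0.05 (CRTAM, SH2D1A, IL2RB, IL12RB2 and CD7) and 0 were lower. CRTAM, an adhesion receptor of cytotoxic cells, had 3 and 11 UMIs against 0 and 3, and IL12RB2, a chain of the IL12 receptor, had 4 and 6 against 0 and 2. Neither passed (adjusted p = 0.23 and 0.33). SH2D1A, the SLAM-associated adaptor SAP, had 203 and 619 CPM against 164 and 208 CPM (adjusted p = 0.23).

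The helper list, with CD4 and CD28 lower, had a median log2 fold change of -0.12, and 9 of its 19 members were positive. In edgeR 3 of the 19 were higher at an unadjusted p below 0.05 (CTLA4, BCL6 and BATF). At the same threshold 6 were lower (CD4, GATA3, TOX, MAF, CD28 and IL6R). GATA3, a regulator of helper T cell fate, had 348 and 206 CPM in GNLY-positive nuclei against 411 and 456 CPM, and TOX, needed for CD4 T cell development, had 869.6 and 1080.5 CPM against 1545 and 1641 CPM (adjusted p = 0.22 and 0.15). Both were lower in GNLY-positive nuclei of both libraries without passing. MAF had 6 and 3 UMIs against 44 and 59 (adjusted p = 0.14). ZBTB7B, the master regulator of the CD4 lineage in mice, had 0 and 0 against 0 and 4 UMIs and was not tested. IL6R had no UMI in GNLY-positive nuclei against 7 and 20 (adjusted p = 0.11).

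None of the 22 thymocyte transcription factors was called higher, and their median was -0.30. In edgeR 8 of them were lower and 1 was higher at an unadjusted p below 0.05. RUNX1 and ETS1 were among the genes with such a p. LEF1, RUNX1 and ETS1 did not pass, at 4000.3 and 4528 CPM of RUNX1 against 4552 and 5149 CPM, 1174 and 982 CPM of ETS1 against 1402 and 1463 CPM, and 2435 and 1051 CPM of LEF1 against 2146 and 1952 CPM. The heparan sulfate list had 1 lower member of 14, HS6ST1, beside 0.395% lower of all genes tested. Its median was -0.56 as fitted, and -0.39 with the 1 member at 0 UMIs on a side set to a bound. The double positive thymocyte list had 1 lower member of 8, beside the same 0.395%. That member was SATB1, which is also counted among the thymocyte transcription factors.

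No member passed among 16 egress and adhesion genes, 7 cytokines and chemokines, 22 cytokine receptor and JAK-STAT genes, 14 genes of T cell receptor response and NF-kB, 15 apoptosis genes, 33 cell cycle genes, 18 interferon response genes, 13 axon guidance genes, 20 small GTPase regulators and 15 chaperones. Over these lists and that of cytotoxic granules, 184 genes in all, 15 were higher and 9 lower at an unadjusted p below 0.05 in edgeR, and DESeq2 also called 0. Over all genes tested, 867 had an unadjusted p below 0.05. A list without a call is therefore not shown to be equal on the 2 sides.

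Against recombining nuclei (RAG1, RAG2 or DNTT detected, 1749 and 2251 nuclei) both sides differed in many more genes than they did from each other. GNLY-positive nuclei had 719 genes higher (7.68% of 9357) and 797 lower (8.52%), and CD40LG/NTNG1/NDST4-positive nuclei had 1055 higher (11.3%) and 1151 lower (12.3%). The 2 comparisons share the recombining nuclei, so their values are given side by side. IL7R, the receptor for the survival factor IL7, had log2 fold changes of 3.51 on the GNLY side and 4.24 on the CD40LG/NTNG1/NDST4 side (adjusted p = 3.7e-06 and 6.2e-09). CCR7, a homing receptor, had 4.35 and 4.95, and S1PR1, which lets thymocytes leave the organ, had 2.55 and 2.07. CCR7 and S1PR1 passed on both sides (adjusted p between 1.3e-08 and 5.5e-05). KLF2 and FOXO1, transcription factors upstream of egress genes in mice, had 6.28 and 2.87 on the GNLY side and 6.77 and 3.13 on the other. ARPP21, a gene of double positive thymocytes, had -4.16 and -3.66, and CD8A had -2.93 and -3.34. These 4 genes also passed on both sides (adjusted p between 5.5e-10 and 0.00018). Without replicate 2 the calls fell to 561 on the GNLY side and 1205 on the other, and without replicate 1 to 895 and 1549.

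Cell cycle genes were lower on both sides, 17 of 33 on the GNLY side and 26 of 33 on the CD40LG/NTNG1/NDST4 side, with none higher. Beside this and the list counts that follow, 8.52% and 12.3% of all genes tested were lower and 7.68% and 11.3% were higher on the 2 sides. More genes were thus called on the CD40LG/NTNG1/NDST4 side in general. SMC4, a condensin subunit, had log2 fold changes of -2.00 and -2.01 (adjusted p = 5.2e-06 and 3.8e-07). Interferon response genes were higher, 9 of 18 and 10 of 18, with none lower. EPSTI1 had 4.72 and 4.35, and B2M, the light chain of class I molecules, had 3.50 and 2.30. Of the 9 natural killer and innate receptor genes 6 were higher on the GNLY side and 2 on the other. Of 15 effector and innate-like factors 9 and 8 were higher, and 0 and 1 lower, where the 1 lower is IKZF2.

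**Figure D3:**
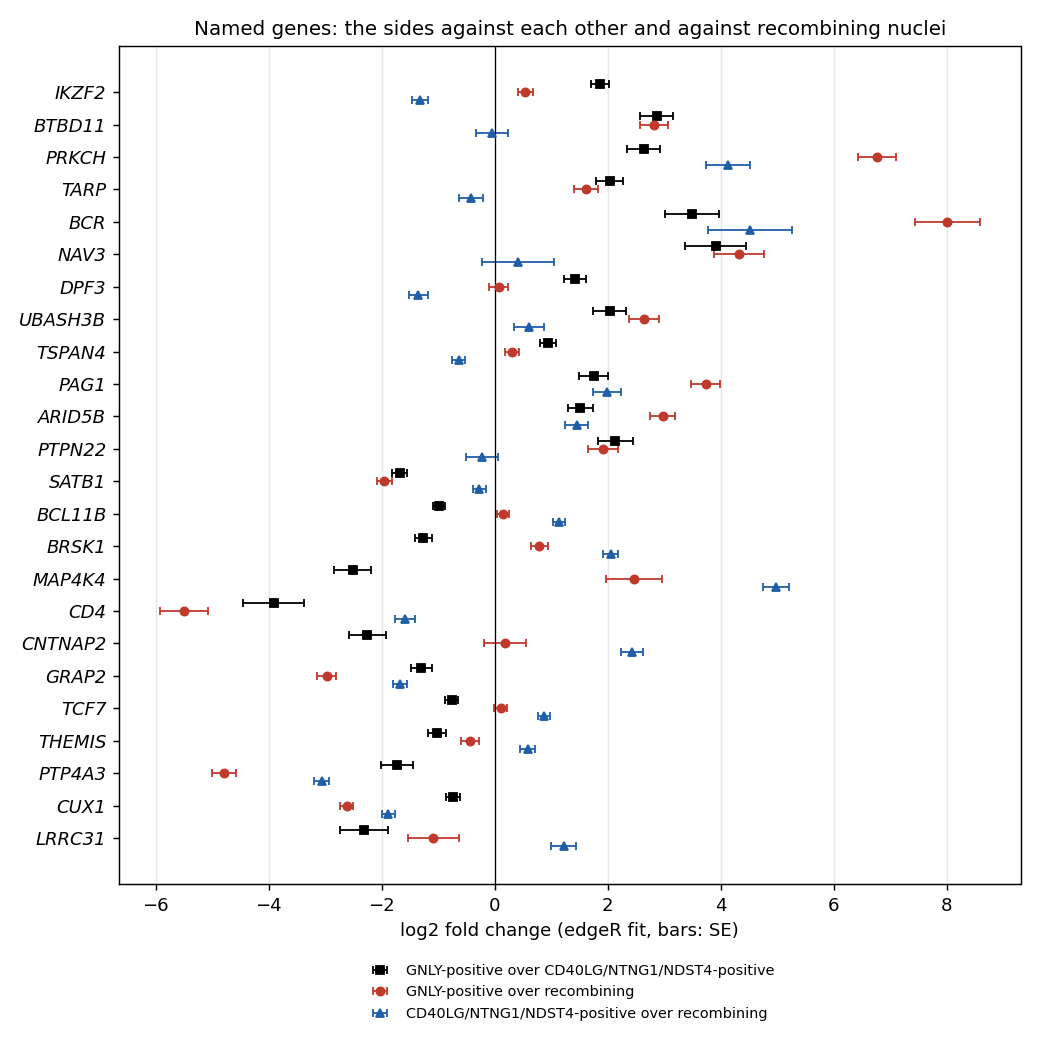
Log2 fold changes of the 24 leading genes from edgeR with standard errors, for GNLY-positive over CD40LG/NTNG1/NDST4-positive nuclei (black), GNLY-positive over recombining nuclei (red) and CD40LG/NTNG1/NDST4-positive over recombining nuclei (blue). The red and blue values share the recombining nuclei; for IKZF2 and DPF3 the blue value is below 0, and for SATB1 and CD4 the red value is the lower of the 2.

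The leading genes differed in how each side stood relative to recombining nuclei. For IKZF2 recombining nuclei lay between the sides at 1319 and 1268 CPM, with log2 fold changes of 0.54 for GNLY-positive and -1.32 for CD40LG/NTNG1/NDST4-positive nuclei (adjusted p = 0.012 and 3e-06). PRKCH was higher on both sides than in recombining nuclei, with log2 fold changes of 6.77 and 4.13, and had only 3.61 and 7.83 CPM there. BCR followed the same pattern, at 0.721 and 0.921 CPM in recombining nuclei. SATB1 was lower in GNLY-positive nuclei (-1.95, adjusted p = 5.6e-08), while the CD40LG/NTNG1/NDST4 side gave -0.27 (adjusted p = 0.091) and did not pass. CD4 was lower on both sides than in recombining nuclei, where it had 588 and 675 CPM, with log2 fold changes of -5.50 and -1.59. BCL11B and TCF7 were higher on the CD40LG/NTNG1/NDST4 side (1.13 and 0.87) and did not pass on the GNLY side (0.15 and 0.11). Of the 31 higher genes with a symbol, 28 were also higher than recombining nuclei on the GNLY side, 1 was lower (MBP) and 2 did not pass, against 14 higher, 5 lower and 12 not passed on the other side. Of the 28 lower genes with a symbol, 5 were higher, 16 lower and 7 not passed on the GNLY side, against 12, 14 and 2 on the other side. Of all genes tested, 7.68% were higher and 8.52% lower on the GNLY side, against 11.3% and 12.3% on the other. These genes were chosen by the difference between the sides in the same sums. Part of such a split therefore follows from the choice, and the counts are a description.

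The levels also varied within the sides. They are given here for each library, as a description with no test, and GNLY itself, a gene of the rule, sets the first split. GNLY-positive nuclei with 2 or more GNLY UMIs were 21 and 35 in replicates 1 and 2 (19184 and 56538 UMIs), against 48 and 37 nuclei with a single GNLY UMI (49810 and 45268 UMIs). PRKCH had 1355 and 1132 CPM in nuclei with 2 or more against 442 and 707 CPM in those with 1, BTBD11 had 1095 and 637 CPM against 201 and 309 CPM, and CBLB had 1251 and 2848 CPM against 602 and 1082 CPM. CD28 had 156 and 35.4 CPM against 642 and 574 CPM. For these 4 genes both libraries gave the same direction. For others they did not: SATB1 had 1459.5 and 637 CPM against 1466 and 3225 CPM, close in replicate 1 and apart in replicate 2. BCL11B had 5213 and 3308 CPM against 5079 and 7754 CPM, also close in replicate 1 and apart in replicate 2. IKZF2 had 729.8 and 2264 CPM against 3252 and 2010.2 CPM, with opposite directions in the 2 libraries. With both libraries pooled, 21 of the 24 leading genes lay farther from the other side in nuclei with 2 or more GNLY UMIs. This count was not made over all genes, and the 24 were chosen by their difference in these same nuclei. Pooling also weighs the libraries unequally, with 19184 and 56538 UMIs at 2 or more against 49810 and 45268 at 1. The count is therefore a description and no support for a difference by GNLY level.

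**Figure D4:**
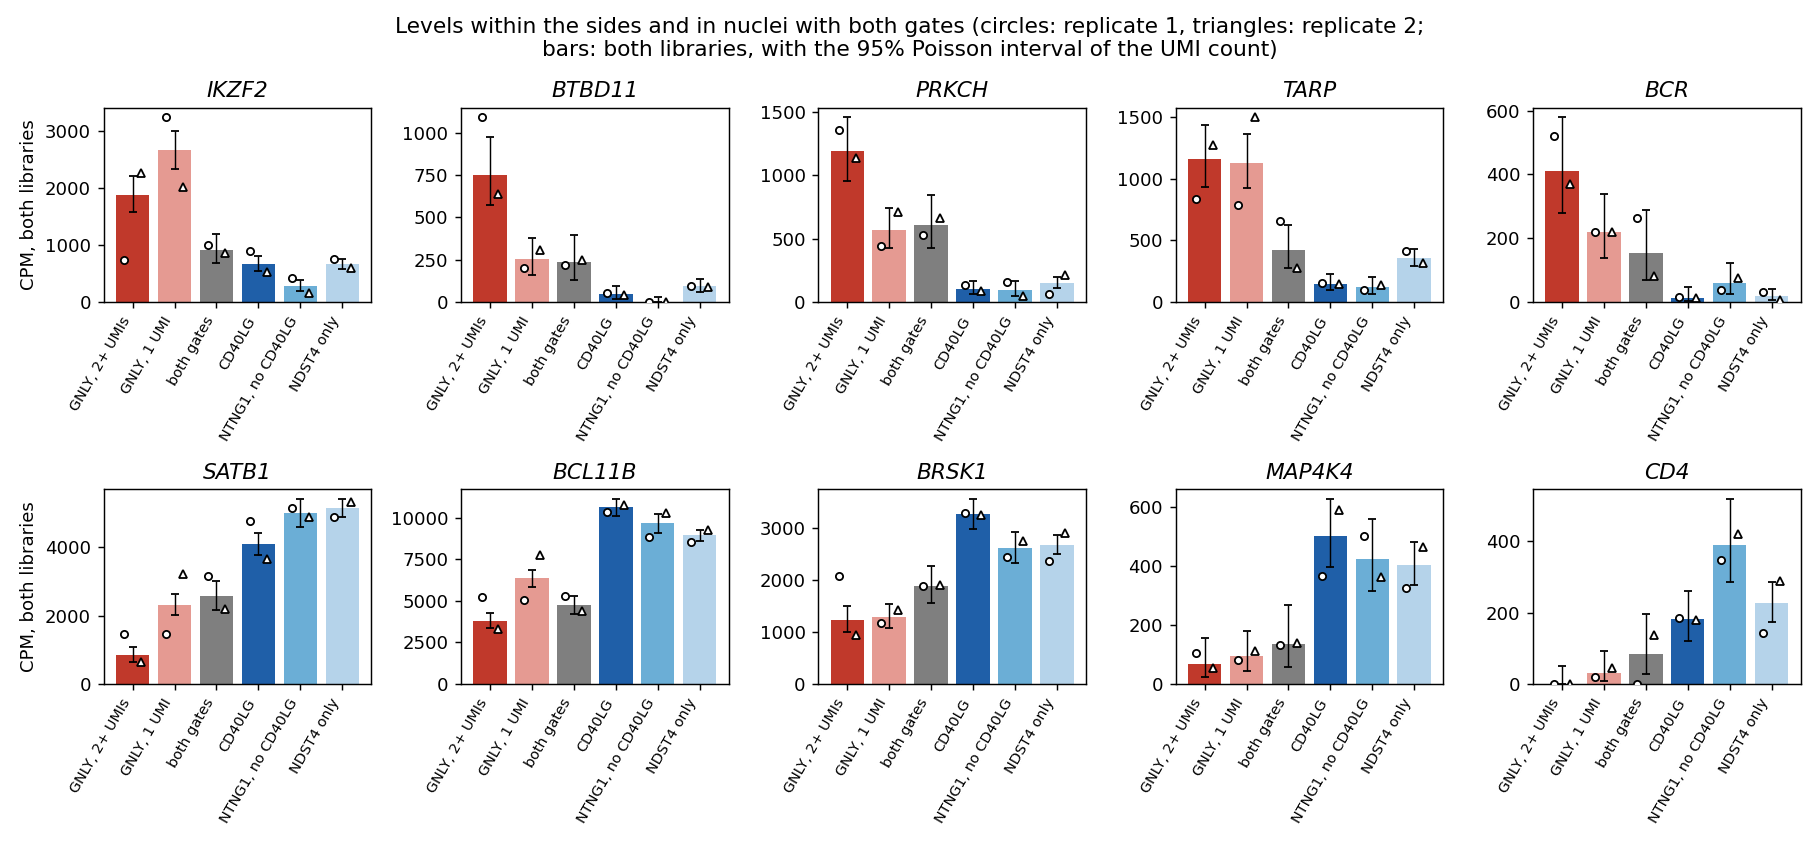
Levels of 10 leading genes, in CPM, in GNLY-positive nuclei with at least 2 or with 1 GNLY UMI (red), in the 42 nuclei that passed both gates (grey), and in CD40LG/NTNG1/NDST4-positive nuclei by the gene that included them (blue). Bars start at 0 and pool both libraries, with 95% Poisson intervals of the UMI count only, and circles and triangles are replicates 1 and 2; for SATB1 all 4 red points lie below all 6 blue points, while the red groups themselves differ in replicate 2 only.

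IKZF2 and SATB1 were also counted together in each nucleus. Of the 141 GNLY-positive nuclei 10 held both, 49 held IKZF2 without SATB1, 21 held SATB1 without IKZF2, and 61 held neither. On the CD40LG/NTNG1/NDST4 side 47 of 496 held both, 38 IKZF2 alone, 225 SATB1 alone and 186 neither. TARP was found with IKZF2 in 35 GNLY-positive nuclei and without it in 27, and with SATB1 in 8 and without it in 54.

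Within the CD40LG/NTNG1/NDST4 side, nuclei were also grouped by the gene that included them. SATB1 had 4772 and 3657 CPM in nuclei with CD40LG, 5155 and 4881 CPM in those with NTNG1 but no CD40LG, and 4873 and 5334 CPM in those with NDST4 only, in replicates 1 and 2. CD4 had 184 and 179 CPM, 349 and 422 CPM and 142 and 288 CPM in the same groups, and IKZF2 had 901 and 516 CPM, 426 and 151 CPM and 758 and 587 CPM. CD4 was highest and IKZF2 lowest in the NTNG1 group of both libraries, and BTBD11 had no UMI there. With the second side restricted to the 120 nuclei with CD40LG, 91 genes were called and 21 of the 24 leading genes were called again, and with those nuclei left out 75 were called and all 24 were called again.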

How the data were processed

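The deposited matrices of the 2 thymus libraries hold UMI counts in whole numbers, made by the authors with Cell Ranger 7.0.1 on GRCg7b, per the labels' protocols and the submitters' processing notes, with the annotation limited to protein-coding and long non-coding genes. The names of the deposited count files refer to CellBender, which subtracts free RNA, so a 0 can reflect that step; how it was run is not given in the sources used here. Replicate 1 held 4826743 UMIs in 6564 barcodes and replicate 2 held 6570941 in 6050. UMIs were summed per library over GNLY-positive nuclei, CD40LG/NTNG1/NDST4-positive nuclei, other nuclei without the excluded genes (2415 and 2154) and recombining nuclei. The recombining group had RAG1, RAG2 or DNTT and none of the other 9 gate genes. All groups were fitted together with edgeR 4.0.16 (R 4.3.3; TMM, filterByExpr, two-sided quasi-likelihood test, 3 residual degrees of freedom), with the replicate as a block because the groups share libraries. The 12 gate genes stayed in the library sizes and out of the tests. CPM was not TMM-scaled, and fold changes are the fitted ones. The doublet score, DESeq2 1.42.0 and the other alternatives are in the closing section, and code ran on simulated data first. The leading genes are the 12 higher and 12 lower called genes with a symbol and the smallest p. Members and lists were chosen with earlier results of these data known. Gene positions came from RefSeq by symbol, and the genes without one are counted only. Intervals cover counting error only.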

Additional observations from a re-analysis of the deposited data

How the results depend on the processing

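All 75 genes called between the sides kept their sign under every alternative listed here. The number of calls was 116 with DESeq2 (62.9% higher, against 50.7%), 162 without a filter on low counts, 161 with the 2 sides alone in the fit (1 residual degree of freedom), and 138 with at least 2 gate UMIs. Leaving out nuclei with B cell, macrophage or dendritic cell markers, also chosen after seeing the data, gave 45, and 1008 for GNLY-positive against recombining nuclei. Without the replicate block 32 were called, all of them among the 75. Leaving out both sides of 1 library while keeping its other 2 nucleus groups, a form chosen after seeing the data, gave 4 to 23 calls, and the lone sum of each side is assumed to vary like the other groups. Against recombining nuclei the same gave 561 to 895 calls on the GNLY side and 1205 to 1549 on the other, thinning to 400 UMIs gave 935 on the GNLY side, and DESeq2 had 60.8% higher there, against 47.4%. The remaining alternatives stayed within 1.5 times: between the sides they gave 51 calls with thinning (15 higher and 36 lower), 64 with SH3RF3 at 0 on both sides, 66 without nuclei holding markers of other types, 73 with at least 10 UMIs (chosen after seeing the data), 75 with NTNG1 or NDST4 alone, 78 with RLE scaling, 81 with 400 detected genes, 86 without cycling nuclei, 87 without the highest doublet scores and 91 with CD40LG alone. Over the alternatives that keep both libraries, 366 of 384 tests of the 24 leading genes were called again. The 18 lost were UBASH3B, PAG1, PTPN22 and PTP4A3 with thinning, TSPAN4 with SH3RF3 at 0, ARID5B without nuclei of other types, GRAP2, PTP4A3 and CUX1 with CD40LG alone, TCF7, THEMIS and LRRC31 without the block, PTP4A3 with 2 gate UMIs CUX1 without cycling nuclei, and BCR, NAV3, PTP4A3 and CUX1 without nuclei of B cell, macrophage or dendritic cell markers; the causes were not tested. The depth of 68994 and 101806 UMIs on the GNLY side limits what can be called there.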

Other observations

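The rule left out nuclei that passed a gate but held other genes. Of 240 nuclei with GNLY and at least 200 detected genes, 37 held SOX13, a transcription factor of gamma delta T cells in mice, 13 held DNTT, 8 held CACNA1C, 4 held RAG1, 3 held PAX5, 2 held RAG2 and 1 held FOXN1. The 43 GNLY nuclei with SOX13 or CACNA1C, 10 and 33 in replicates 1 and 2, summed to 137046 UMIs, of which 122100 came from replicate 2. In them TARP had 2676 and 844 CPM, IKZF2 had 535 and 811 CPM, and SATB1 had 1137 and 1294 CPM. RUNX2 had 0 and 164 CPM there. The 42 nuclei that passed both gates, with 59238 UMIs, had 1006 and 852 CPM of IKZF2, 3149 and 2199 CPM of SATB1, and 525 and 1237 CPM of RUNX2 in replicates 1 and 2. Within the GNLY-positive side, the 40 nuclei with SH3RF3 had 704 and 754 CPM of SATB1 in replicates 1 and 2, against 1873 and 2203 CPM in the 101 without it. BTBD11 had 787 and 857 CPM in nuclei with SH3RF3 against 268 and 344 CPM, and RUNX2 had 828 and 857 CPM against 268 and 537 CPM. None of these values was tested.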
